A study of Mustela putorius furo with 6 samples.

Results

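The genes described here were those whose transcripts were more abundant in all libraries of the lateral gyrus than in any library of the lateral sulcus, in the germinal zone of the ferret (Mustela putorius furo) neocortex. Expression was taken as CPM, the reads of a gene per 1000000 reads counted in that library. A gene was included when its mean over the 6 libraries was at least 10 CPM, its lowest gyrus value lay above its highest sulcus value, and the gyrus mean was at least 1.3 times the sulcus mean. Of 32057 genes listed, 10351 reached the minimum mean, and 201 of these met every condition, which is 1.94% of the 10351. They are called gyrus-higher genes below. The mirrored rule gave 83 genes in the sulcus, 0.802% of the same 10351. Because the measured values chose the genes, the difference between the regions is a description of them and carries no test.

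Each region had 3 libraries, numbered 1 to 3, and all came from brain tissue of wild-type animals at postnatal day 4, with no treatment named. The series text calls gyrus and sulcus samples paired, and libraries with the same number are compared as pairs below. Nothing in the labels says whether a library came from 1 animal or from several, or whether libraries of a region came from separate animals, so the spread between libraries may be technical. Totals ran from 10931832 to 12344534 counts per library.

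The germinal zone lines the ventricle of the developing cortex and holds the radial glia and intermediate progenitors that give rise to neurons and later to glia. In the ferret, as in other species with a folded cortex, basal radial glia are also found away from the ventricle in an outer subventricular zone. These progenitors are known to be more numerous beneath regions that become gyri than beneath those that become sulci. The question put by the series is which transcripts differ between the germinal zones of a future outward fold and a neighbouring groove.

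The files give ferret Ensembl identifiers without symbols. The RefSeq gene table of assembly ASM1176430v1.1 matched 0 of all 32057 identifiers, and so 0 of the 201. What the genes encode is therefore not reported, and the labelled tissue was not checked against marker genes. Genes are referred to by their rank in ratio or in level, and 2 are given by identifier. In bulk tissue, fewer cells of a type and less RNA per cell cannot be told apart, and this holds for every value below.

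Most gyrus-higher genes differed modestly between the regions. The median ratio of gyrus mean to sulcus mean was 1.43, and the middle part of the distribution, from the lower to the upper quartile, ran from 1.35 to 1.57. On the log2 scale the median difference was 0.51, against 0.013 over all 10351 genes. A ratio of at least 1.5 was seen in 73 of the 201 (36.3%), a ratio of at least 2 in 14 (6.97%) and a ratio of at least 4 in 3. Among the 10351 genes, 23 had a gyrus mean at least 2 times the sulcus mean. The regions overlapped in 9 of these 23, which are not gyrus-higher genes.

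**Figure D1:**
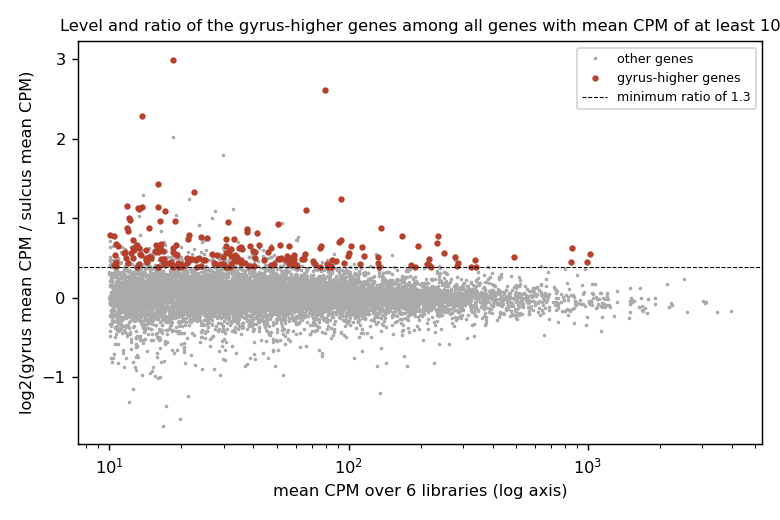
Each point is 1 of the 10351 genes with a mean of at least 10 CPM, with its mean CPM over 6 libraries on a log axis and the log2 ratio of gyrus mean to sulcus mean on the vertical axis. The 201 gyrus-higher genes are red and lie above the dashed line at a ratio of 1.3; 3 of them stand apart with ratios of 4.89 to 7.97.

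Gyrus-higher genes ranged in mean level from 10.02 to 1019 CPM. Their median level was 30.8 CPM, against 47.7 CPM for all 10351 genes, and 69 of the 201 were at or above the latter value. Of the 14 genes with a ratio of at least 2, 3 were at or above it. Between 10 and 20 CPM, 73 of 1959 genes (3.73%) were gyrus-higher, between 100 and 200 CPM 12 of 1543 (0.778%), and from 200 CPM upwards 18 of 1035 (1.74%). Ratios of at least 1.3 with or without overlap were themselves more frequent at low levels, at 9.19% of genes between 10 and 20 CPM and 2.32% from 200 CPM upwards. Counting error also grows towards low levels, and its part in the higher share there was not tested.

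ENSMPUG00000012141 had the largest ratio, with a gyrus mean 7.97 times the sulcus mean. It measured 36.7, 35.3 and 26.7 CPM in gyrus libraries 1, 2 and 3, and 2.06, 8.51 and 1.81 CPM in sulcus libraries 1, 2 and 3. The regions were far apart, with the lowest gyrus value 3.14 times the highest sulcus value, and sulcus library 2 stood above the other sulcus libraries. Counts behind these values were 453, 403 and 292 in the gyrus and 23, 97 and 20 in the sulcus.

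The gene with the second largest ratio, 6.13, was more abundant and again had sulcus library 2 as the highest of the sulcus. Its gyrus values were 156, 148.5 and 104 CPM in libraries 1, 2 and 3. Its sulcus values were 4.30, 55.2 and 7.17 CPM. This library lay between the gyrus libraries and the other sulcus libraries, so that pairs 1 and 3 gave ratios of 36.3 and 14.5 and pair 2 a ratio of 2.69.

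The gene ranked 3, with a ratio of 4.89, repeated this profile at a lower level. It measured 30.9, 20.9 and 16.6 CPM in the gyrus, against 3.14, 8.95 and 1.91 CPM in the sulcus. Leaving out sulcus library 2 moved the log2 ratio of means from 2.99 to 4.09 for ENSMPUG00000012141, from 2.62 to 4.57 for the gene ranked 2 and from 2.29 to 3.18 for the gene ranked 3. In each of these 3 genes gyrus library 1 was the highest and gyrus library 3 the lowest of the gyrus.

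Sulcus library 2 was at least 2-fold above both other sulcus libraries in 4 gyrus-higher genes, 1.99% of the 201, and in 11 of all 10351 genes, 0.106%. This description was chosen after the values were seen. The 4 were the first 3 genes by ratio and the gene ranked 13, which measured 18.1, 32.9 and 18.8 CPM in the gyrus, against 7.08, 17.5 and 8.07 CPM in the sulcus. Of the 11, these same 4 and no other also had each gyrus library at least 2-fold above sulcus libraries 1 and 3. The rule and the ranking used the same 6 values, so nothing is read from these counts.

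Ratios dropped sharply after the first 3 genes, to 2.69 for the gene ranked 4 and 2.19 for the gene ranked 10, and none of the genes ranked 4 to 10 had the raised sulcus 2 value. The gene ranked 4 varied widely within the gyrus, at 24.3, 11.8 and 33.6 CPM. It varied less in the sulcus, at 10.9, 7.63 and 7.35 CPM. Its lowest gyrus value was 1.08 times its highest sulcus value, a near contact of the regions despite the large ratio. The gene ranked 5 measured 32.6, 22.3 and 41.6 CPM in the gyrus, against 9.41, 10.9 and 18.3 CPM in the sulcus.

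The gene ranked 6 was the most evenly expressed of the first 10. Its gyrus values were 125, 135 and 133 CPM, a mean of 131 ± 5.21 CPM (SD, n = 3). Its sulcus values were 61.9, 50.6 and 54.0 CPM, a mean of 55.5 ± 5.77 CPM (SD, n = 3). Both regions were tight here, and the lowest gyrus value was 2.02 times the highest sulcus value.

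Among the genes ranked 7 to 10, the size of the ratio was similar but its support differed. The gene ranked 7 reached its ratio of 2.23 through gyrus library 1, at 26.6 CPM, while gyrus libraries 2 and 3 were at 9.90 and 12.3 CPM and the highest sulcus library was at 8.96 CPM. The gene ranked 8 was even in both regions, with 19.5, 22.9 and 23.8 CPM in the gyrus, against 8.78, 10.97 and 10.3 CPM in the sulcus. The gene ranked 9 measured 16.0, 23.6 and 16.6 CPM in the gyrus, against 7.71, 6.75 and 11.2 CPM in the sulcus. The gene ranked 10 measured 16.7, 16.6 and 20.8 CPM in the gyrus, against 8.52, 5.53 and 10.7 CPM in the sulcus. In all of these except the gene ranked 7, the lowest gyrus value was at least 1.3 times the highest sulcus value.

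**Figure D2:**
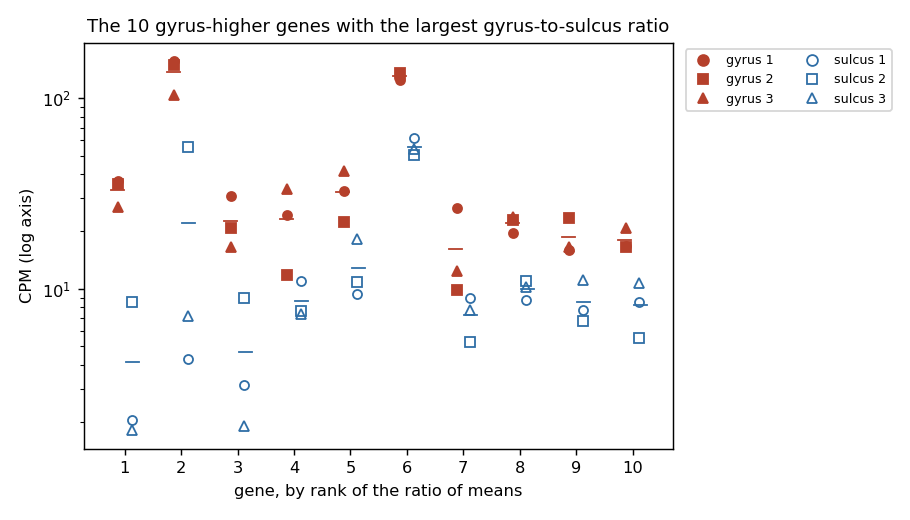
CPM of the 10 gyrus-higher genes with the largest ratio of means, on a log axis. Filled red symbols are gyrus libraries, open blue symbols sulcus libraries, symbol shape gives the replicate number and short lines the means of 3; in the first 3 genes the sulcus 2 square lies between the gyrus values and the other sulcus values.

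The most abundant gyrus-higher genes had small ratios, and none of the first 10 by level was among the first 10 by ratio. ENSMPUG00000004325 had the highest level, a gyrus mean of 1210 ± 139 CPM and a sulcus mean of 827 ± 167 CPM (SD, n = 3 each), a ratio of 1.46. It measured 1191, 1082 and 1358 CPM in gyrus libraries 1, 2 and 3 and 782, 686 and 1012 CPM in the sulcus libraries. Library 3 was the highest and library 2 the lowest in both regions, and a dependence of this gene on the replicate number was not tested.

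The second gene by level had the opposite order in its libraries numbered 3. It measured 1144, 1242 and 1049 CPM in the gyrus, against 955, 934 and 626 CPM in the sulcus, a ratio of 1.37. Library 3 was the lowest in both regions, and the gyrus and sulcus values came closest between gyrus library 3 and sulcus library 1.

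The gene ranked 3 by level measured 880, 1185 and 1037 CPM in the gyrus, against 728, 661 and 632 CPM in the sulcus, a ratio of 1.53, the largest of the first 10 by level. The gene ranked 4 by level measured 883, 961 and 1103 CPM in the gyrus, against 699, 703 and 753 CPM in the sulcus, a ratio of 1.37. The gene ranked 5 by level measured 465, 588 and 675 CPM in the gyrus, against 419, 377 and 415 CPM in the sulcus, a ratio of 1.43. In these 3 genes the sulcus libraries lay close together and the gyrus libraries were spread more widely.

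The genes ranked 6 to 10 by level had ratios from 1.301 to 1.393. The gene ranked 6 showed how narrow the separation could be: it measured 325, 446 and 380 CPM in the gyrus, against 325, 318 and 243 CPM in the sulcus, with the regions 0.1 counting standard deviations apart at their nearest libraries. It was also the gene closest above the minimum ratio.

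**Figure D3:**
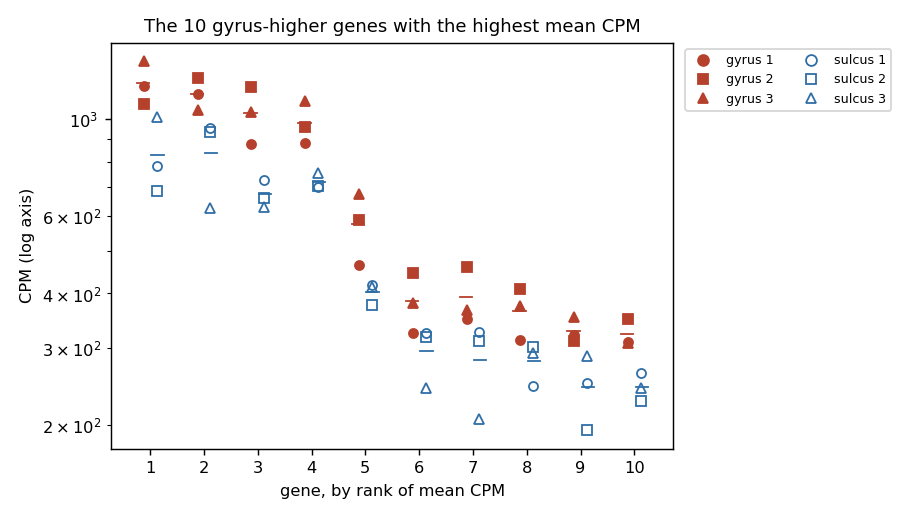
CPM of the 10 gyrus-higher genes with the highest mean, on a log axis. Filled red symbols are gyrus libraries, open blue symbols sulcus libraries, symbol shape gives the replicate number and short lines the means of 3; ratios of means in these genes run from 1.301 to 1.53.

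The separation between regions was narrow for most gyrus-higher genes. The lowest gyrus value was a median of 1.102 times the highest sulcus value. It was within 5 percent of it in 55 of the 201 (27.4%) and at least 1.3 times as high in 25 (12.4%). The gap exceeded 2 standard deviations of counting error in 79 genes (39.3%) and was under 1 in another 79 (39.3%). For the latter, counting error alone is as large as the gap that places the gene in the set. Without the minimum ratio, 466 genes had all gyrus values above all sulcus values (4.50% of the 10351), and 263 had the reverse (2.54%). How many genes would separate this way with 3 libraries per region and no difference between the regions was not tested.

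Values at the limits of the rule were close on both sides. The 3 genes just inside the minimum ratio had ratios of 1.3008, 1.3010 and 1.302, and the 3 just outside 1.2995, 1.2994 and 1.298. At the minimum level the 3 genes just inside had means of 10.02, 10.4 and 10.5 CPM and the 3 just outside 9.94, 9.79 and 9.75 CPM. For the condition of no overlap, the 3 just inside had a lowest gyrus value of 1.0010, 1.0011 and 1.0012 times the highest sulcus value, and the 3 just outside 0.9989, 0.9965 and 0.9951 times. Of 441 genes at the minimum level with a ratio of at least 1.3, 240 were left out because the regions overlapped.

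The libraries did not contribute equally. Gyrus-higher genes together held 1.66%, 1.90% and 1.78% of all counts in gyrus libraries 1, 2 and 3, and 1.33%, 1.197% and 1.14% in sulcus libraries 1, 2 and 3. Relative to its own mean over the 6 libraries, the median gyrus-higher gene lay 0.16, 0.33 and 0.22 higher in gyrus libraries 1, 2 and 3 on the log2 scale. In sulcus libraries 1, 2 and 3 the same median was -0.15, -0.35 and -0.44. Libraries numbered 1 thus lay nearest the middle in both regions, and the gyrus 2 and sulcus 3 libraries lay furthest from it. Over all 10351 genes these medians ran from -0.078, in sulcus library 3, to 0.023.

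**Figure D4:**
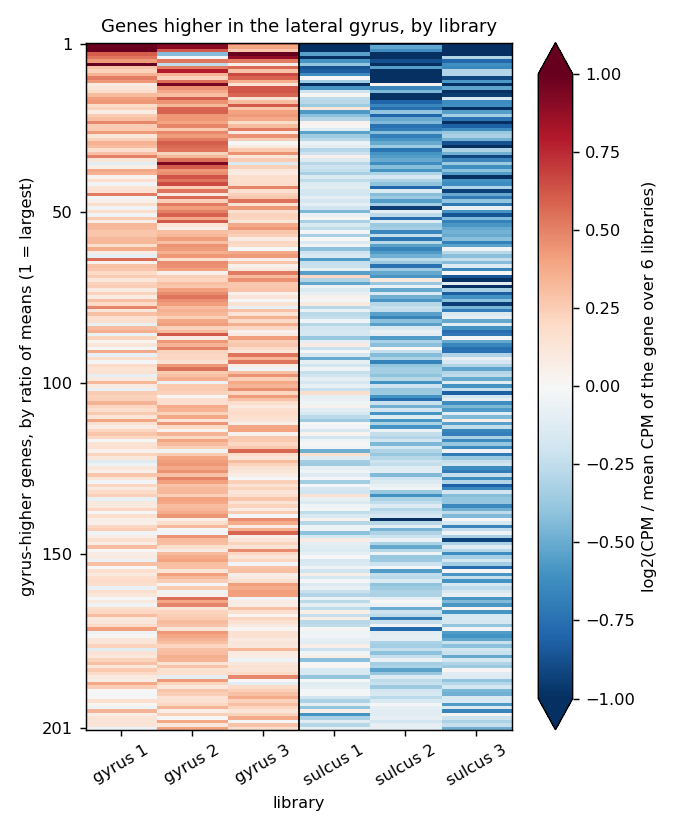
Each row is 1 of the 201 gyrus-higher genes, from the largest ratio of means at the top to the smallest at the bottom, and each column is a library. Colour gives log2 of CPM over the mean CPM of the gene, with colours ending at -1 and 1; the columns of gyrus 1 and sulcus 1 are the palest, with medians of 0.16 and -0.15.

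Sulcus library 1 was the highest of the sulcus in 127 of the 201 genes (63.2%), against 35.8% of all 10351 genes. Gyrus library 2 was the highest of the gyrus in 115 (57.2%), against 36.4% of all genes. The lowest gyrus library was number 1 in 90 genes (44.8%), number 2 in 35 (17.4%) and number 3 in 76 (37.8%). Over all genes these shares were 24.9%, 33.8% and 41.3%. The libraries that came closest to each other across the regions were gyrus 1 and sulcus 1 in 56 genes (27.9%) and gyrus 3 and sulcus 1 in 52 (25.9%). Shares over all genes were not computed for these combinations. Membership was most often limited by sulcus library 1, the highest of the sulcus in 127 of the 201. Leaving out any library relaxes the condition of no overlap, and each omission gave more than 201 genes. Without sulcus library 1, 2 or 3 the rule gave 543, 272 and 305 genes. Without gyrus library 1, 2 or 3 it gave 318, 225 and 423. Of the 201 genes, 151 met the rule without sulcus library 3, and the other 50 needed its low values. The dependence on gyrus library 2 was similar, with 155 of the 201 meeting the rule without it. Without sulcus library 2, 172 met the rule.

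The size of the difference varied from pair to pair in the same gene. The median gyrus-to-sulcus ratio of the 201 genes came to 1.24 for pair 1 and 1.59 for both pair 2 and pair 3. Pair 1 gave the smallest ratio in 141 genes, pair 2 in 26 and pair 3 in 34. In pair 1, 83 genes (41.3%) reached a ratio of 1.3 and 41 (20.4%) were under 1.1, while in pairs 2 and 3, 178 (88.6%) and 169 (84.1%) reached 1.3. All 3 pairs reached 1.3 in 52 genes (25.9%), 1.5 in 18 and 2 in 6. Within a gene, the largest pair ratio was a median of 1.51 times the smallest.

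Differences between gyrus and sulcus were also smallest in pair 1 over all genes. The quartiles of the log2 ratio of the 10351 genes were -0.11 and 0.11 in pair 1, -0.13 and 0.16 in pair 2, and -0.15 and 0.28 in pair 3. The median over all genes was -0.0066, 0.0079 and 0.059. The part of this pattern in the smaller ratios of gyrus-higher genes in pair 1 was not tested. The first 3 genes by ratio went the other way, with their largest ratios in pair 1.

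**Figure D5:**
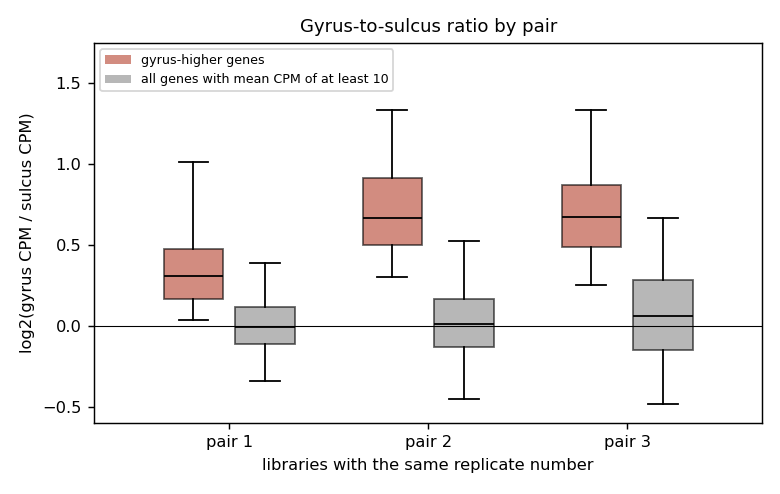
Boxes show the log2 ratio of gyrus CPM to sulcus CPM in pairs 1, 2 and 3, for the 201 gyrus-higher genes (red) and for all 10351 genes with a mean of at least 10 CPM (grey); the line is the median, the box the quartiles and the whiskers the percentiles 5 and 95. Gyrus-higher genes have medians of 0.31, 0.67 and 0.67, and all genes lie around 0 in each pair.

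The rule was also applied to 2 pairs, and the chosen genes were followed into the pair left out. These lists are not the gyrus-higher genes, which were chosen from all libraries. The pair left out need not be independent, since libraries of a region may not come from separate animals. The shares below therefore describe these libraries only. Chosen from pairs 1 and 3, 245 genes were followed into pair 2, where 205 (83.7%) were higher in the gyrus, against 51.2% of all genes at the minimum level. Their median ratio was 1.41 in the pairs that chose them and 1.33 in pair 2. Chosen from pairs 1 and 2, 333 genes were followed into pair 3. There 279 (83.8%) were higher in the gyrus, against 58.1% of all genes. The median ratio of the 333 went from 1.41 to 1.37. Over all genes the median ratio in pair 3 was 1.04.

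Shares were lower in pair 1. Chosen from pairs 2 and 3, 645 genes were followed into pair 1, where 373 (57.8%) were higher in the gyrus, against 48.5% of all genes. Their median ratio was 1.44 in pairs 2 and 3 and 1.03 in pair 1. A ratio of at least 1.3 was kept by 76 of the 645 (11.8%), against 5.41% of all genes. In pair 2 the figure was 131 of 245 (53.5%), against 9.56%, and in pair 3 189 of 333 (56.8%), against 17.3%. These are shares of genes, which are not independent replicates, and the differences between pairs were not tested. The genes used for comparison were not matched in level to the chosen genes. Ratios of at least 1.3 were more frequent at low levels, and the part of level in these shares was not tested.

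Replicate spread of gyrus-higher genes was close to that of other genes, although the rule favours genes with little spread. The median coefficient of variation between the 3 gyrus libraries was 12.4%, against 11.98% over all 10351 genes. Between the 3 sulcus libraries it was 17.6%, against 15.5%. The sulcus was the more variable region in 138 of the 201 genes (68.7%) and in 66.9% of all genes.

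Same-numbered libraries of the 2 regions were also compared. Deviations from the region means, on the log2 scale, correlated across the 201 genes at -0.024, 0.23 and 0.34 between the gyrus and sulcus libraries of pairs 1, 2 and 3. Across all 10351 genes the values were 0.23, 0.72 and 0.77. Of differing numbers, gyrus 2 with sulcus 1 was at 0.43 across all genes, above pair 1. The remaining combinations of differing numbers ran from -0.74 to 0.0018. The rule used the same values, and these correlations across genes are a description only.

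With edgeR's quasi-likelihood test over 14391 genes, without the pairing, 0 gyrus-higher genes passed a Benjamini-Hochberg adjusted p of 0.05, as did 0% of all genes in that direction. At an unadjusted p under 0.05, 154 of the 201 stood beside 1.82% of all genes that were higher in the gyrus at that level. Over both directions, 424 of the 14391 genes had an unadjusted p under 0.05 in this edgeR test. With the replicate number as a block, 2 of the 201 passed the adjusted threshold, against 0.0139% of all genes. DESeq2, which was run without the pairing, called 11 of the 201, against 0.0795% of all genes. All 201 genes passed the filter on low counts. The rule used the same contrast, so nothing is read from these counts.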

How the data were processed

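Each library has 1 deposited file of counts by gene, without a header, taken as raw because they are whole numbers with differing totals. Per the submitters' processing notes, the authors used HISAT2, Trimmomatic 0.33, Cuffnorm, Cufflinks 2.2.1 and HTSeq 0.6.0, with no order given. Not given in the sources used here are the build, the annotation, the strand setting and how reads matching several genes were treated, so counts of overlapping, antisense and near-identical genes are uncertain. CPM was computed from file totals with no other scaling. The genes, the lists and the tests were chosen with earlier results of these data known. The 36 gene lists need symbols and were not tested. Named were to be the 10 genes with the largest ratio, the 10 with the highest mean, list genes and genes at the limits of the rule, with at most 2 identifiers; the genes leading the first 2 of these were taken. No sequences are shown.

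The fit over all genes used edgeR 4.0.16 in R 4.3.3 (filterByExpr with a minimum count of 10, TMM, quasi-likelihood test, 2-sided, Benjamini-Hochberg), and DESeq2 1.42.0 was an alternative. The edgeR fit and the rule were run on simulated data, with changes larger than most of those described here. This checked the code only. Deviations from the region means correlated at 0.185, 0.554 and 0.643 between same-numbered libraries 1, 2 and 3, all over the limit of 0.1. Same-numbered libraries were therefore compared as pairs, but the main edgeR fit and DESeq2 did not use the pairing. One other combination, gyrus 2 with sulcus 1, also passed the limit, at 0.279. This is above the value of pair 1, so the check does not single out pair 1. For the correlations within the gyrus-higher genes, 0.5 was added to CPM before log2. A standard deviation of counting error was taken from the counts of the 2 nearest libraries as Poisson counts, and it covers counting error only. Between any 2 libraries the chi-square statistic of their counts was 7.75 or more per degree of freedom, well above sampling noise. The lowest value was that of gyrus 1 and sulcus 1. Values between regions ran from 7.75 to 82.4, and values within a region from 11.6 to 65.8.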

Additional observations from a re-analysis of the deposited data

How the results depend on the processing

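The rule gave 201 genes. With TMM scaling it gave 165, of which 162 were among the 201, so 39 depended on scaling by file totals. A minimum mean of 20 CPM gave 128 and of 5 CPM 269, a minimum ratio of 1.2 gave 321 and of 1.5 73. Asking only that gyrus exceed sulcus in each same-numbered pair, the form of the rule with a replicate block, gave 364, which included all 201. Leaving out single libraries gave 225 to 543 genes, of which 151 to 193 were among the 201. The median log2 ratio of the 201 genes, 0.51, was 0.49 with TMM scaling and 0.55 as the median over pairs, and ran from 0.48 to 0.61 without single libraries. TMM scaling moved the median over all genes from 0.013 to -0.011. In an alternative chosen after seeing the data, TMM scaling was also applied to the reading of the pair left out. Shares higher in the gyrus became 60.2%, 82.9% and 79.4% for pairs 1, 2 and 3. Over all genes at the minimum level they were 50%, 46.7% and 50.7%, against 48.5%, 51.2% and 58.1% without TMM scaling. The median ratio of the chosen genes in pairs 1, 2 and 3 became 1.04, 1.33 and 1.297, against 1.03, 1.33 and 1.37. A ratio of at least 1.3 was kept by 13.4%, 52.1% and 49.1% of them, against 11.8%, 53.5% and 56.8%. All genes called by edgeR, 0 in the unpaired fit, became 25 with DESeq2, 5 with the replicate block, 1 without a low-count filter, and 0 to 2 without single libraries, the 2 without sulcus library 2. Gyrus-higher genes called, also 0, became 11 with DESeq2, 2 with the replicate block, 1 without a filter and 0 to 2 without single libraries, and DESeq2 size factors in edgeR left both counts at 0. The cause was not tested. The 20 genes first by ratio or level kept their direction under all 7 alternatives each, which the lack of overlap largely fixes; without sulcus library 2 the log2 ratios of the first 3 by ratio rose to 4.09, 4.57 and 3.18. In 79 genes the regions lay within 1 standard deviation of counting error, and spread between libraries beyond counting adds to this.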

Other observations

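Among the sulcus libraries, library 3 had the most genes at least 2-fold away from both others. It was at least 2-fold below both other sulcus libraries in 196 of the 10351 genes and at least 2-fold above both in 303. Of the 201 gyrus-higher genes, 0 were in either group. The rule bears on both counts, since it needs the regions not to overlap, and the 2-fold limit was chosen after seeing the data. By any amount, sulcus library 3 was the lowest of the sulcus in 100 of the 201 (49.8%) and in 49.3% of all genes. Sulcus library 2 was at least 2-fold below both others in 46 genes, of which 2 were gyrus-higher, and sulcus library 1 in 13, of which 0 were.

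Gyrus library 1 was at least 2-fold above both other gyrus libraries in 1 of the 201 and 5 of the 10351 genes, gyrus library 2 in 1 and 6, and gyrus library 3 in 0 and 51.

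A further 380 genes met the conditions on overlap and ratio but had a mean under 10 CPM. They were not described, since counting error is larger at these levels.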
